A study of Mus musculus with 7 samples.

Results

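The 10 genes of major histocompatibility complex (MHC) class I antigen presentation described here are H2-K1, H2-D1, H2-T23, B2m, Tap1, Tap2, Tapbp, Psmb8, Psmb9 and Psmb10. They were taken by their symbols from a table of 24341 genes, and all 10 were among the 10541 genes with enough signal to be tested. The RNA came from B-cell precursors (BCP), given as sorted from spleen, of the Eμ-Ret mouse strain. The study concerned how leukemia with extra chromosomes arises. Both groups were hemizygous for Emu-Ret, a Ret fusion oncogene under the immunoglobulin heavy chain enhancer, on a BALB/c background, and no group without the transgene was sequenced here. Of the 7 samples, 4 were preleukemic, taken from healthy young animals, and 3 were leukemic, taken from older animals with overt disease. Age therefore differed with disease, and the labels give no ages. The methods describe sorting of preleukemic cells as B220int/CD43int/BP-1hi, and the labels give both groups as sorted. For its in vitro work, the study states that leukemic spleen cells were in most cases not enriched. Its RNA sequencing methods do not mention sorting. The labels number the samples within a group without tying them to mice, so p-values measure the spread between these samples.

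MHC class I molecules display peptides from inside the cell to CD8 T cells and are also read by natural killer cells. Proteasomes cut proteins into peptides, and in lymphoid or interferon-exposed cells 3 inducible catalytic subunits (Psmb8, Psmb9 and Psmb10) take the places of the constitutive ones. The transporter formed by Tap1 and Tap2 moves peptides into the endoplasmic reticulum, where tapasin (Tapbp) bridges it to a heavy chain paired with β2-microglobulin (B2m). Most of these genes lie together in the MHC on chromosome 17. Their promoters answer to NF-κB, interferon regulatory factors and the class I transactivator Nlrc5.

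Positions are given on GRCm38 (mm10), as the deposited table lists them. Of the 10 genes, 8 are on chromosome 17. From the centromeric side these are Tapbp (33919478 to 33929290, plus strand), H2-K1 (33996012 to 34000333, minus), Psmb9 (34182099 to 34187330, minus), Tap1 (34187556 to 34197225, plus), Psmb8 (34198195 to 34201454, plus), Tap2 (34204479 to 34216321, plus), H2-D1 (35263094 to 35267497, plus) and H2-T23. Psmb9, Tap1, Psmb8 and Tap2 fill a stretch of 34223 bases, with 225 bases between Psmb9 and Tap1, which are read away from each other. The table places H2-T23 in a joint locus with H2-T24 and A930015D03Rik (35994504 to 36038174), H2-D1 in one with H2-L, and B2m on chromosome 2 in one with Patl2 and Trim69 (122120108 to 122186189). In GENCODE M21, H2-T23 itself spans 36029773 to 36032855 on the minus strand and B2m spans 122147686 to 122153083 on the plus strand. Psmb10 is on chromosome 8 (105935728 to 105938392, minus).

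Promoter windows of 300 bases (250 before to 50 after the start of the gene) came from RefSeq, assembly GRCm38.p6, for 9 of the 10 genes, with Tap2 unmatched. They are the reference sequence and not that of the BALB/c mice studied. Both strands were searched for 4 patterns, namely a κB-type site (GGGNNNNNCCC, which reads the same on both strands), an interferon-response pattern (AANNGAAA), a cAMP-response core (TGACG) and a CCAAT box (CCAAT). The patterns were chosen with these sequences in view, and none of their matches overlapped in the 9 windows. Over all 32817 RefSeq windows of this length, 14.0% held the κB-type pattern, 23.9% the interferon-response pattern, 20.8% the cAMP-response core and 37.4% the CCAAT box, and 0.165% (54 windows) held all 4. All 4 were found in the windows of H2-K1, H2-D1 and B2m. These 3 windows follow, 5′ to 3′ on the gene's strand, with matches on either strand in capitals. H2-K1 is at chr17:34000298-34000597 (minus), H2-D1 at chr17:35262844-35263143 (plus) and B2m at chr2:122147437-122147736 (plus).
H2-K1: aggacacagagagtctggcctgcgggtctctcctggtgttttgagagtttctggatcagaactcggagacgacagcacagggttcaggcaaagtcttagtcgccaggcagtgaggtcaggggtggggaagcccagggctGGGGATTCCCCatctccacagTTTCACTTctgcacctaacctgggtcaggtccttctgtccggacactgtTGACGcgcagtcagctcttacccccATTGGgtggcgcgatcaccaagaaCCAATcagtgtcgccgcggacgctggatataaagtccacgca
H2-D1: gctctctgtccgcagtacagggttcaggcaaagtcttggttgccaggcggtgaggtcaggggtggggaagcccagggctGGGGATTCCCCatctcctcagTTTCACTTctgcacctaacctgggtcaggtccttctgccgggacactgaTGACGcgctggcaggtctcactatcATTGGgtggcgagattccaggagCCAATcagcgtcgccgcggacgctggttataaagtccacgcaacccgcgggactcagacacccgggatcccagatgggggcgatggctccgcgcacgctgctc
B2m: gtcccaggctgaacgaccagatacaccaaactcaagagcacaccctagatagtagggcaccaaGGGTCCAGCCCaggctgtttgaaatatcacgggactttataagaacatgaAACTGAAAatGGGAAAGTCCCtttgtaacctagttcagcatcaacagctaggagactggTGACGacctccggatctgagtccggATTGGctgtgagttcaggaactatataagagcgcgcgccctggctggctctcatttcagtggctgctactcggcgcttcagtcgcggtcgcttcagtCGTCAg

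In H2-K1 the κB-type match GGGGATTCCCC lay 111 to 101 bases before the start, followed by the interferon-response match and the cAMP-response core. H2-D1 held the identical κB letters 171 to 161 bases before its annotated start, with the same patterns after it in the same order. The windows of H2-K1 and H2-D1 were 89.5% identical over 239 aligned bases, so the matches in these windows are not separate observations. B2m held a pair of κB-type matches, and the nearer one, GGGAAAGTCCC, lay 127 to 117 bases before the start, downstream of the interferon-response match. Of 14 other class I heavy chain genes with a window, 2 (H2-Q4 and H2-T22) held all 4 patterns. A match is a description of letters in the window and not of binding.

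The window of Psmb8 is shown because it was the member called, and that of Tap1 because it is the neighbouring gene, 969 bases away in the table. The Tap1 window (chr17:34187306-34187605, plus) nearly coincides with that of Psmb9 on the other strand (34187281 to 34187580) and is printed once. It held a κB-type match, a cAMP-response core and a CCAAT box. The Psmb8 window (chr17:34197945-34198244, plus) held none of the 4 patterns, and the same was true of Psmb10. GENCODE M21 starts Psmb8 further upstream, at 34197721, so this window lies inside the GENCODE gene, and the sequence before that start was not searched. It also starts H2-D1 upstream of the window shown above, at 35262730. The same holds for the windows of Psmb9 (GENCODE start 34187764, minus strand) and Tapbp (GENCODE start 33915899, plus strand).
Tap1: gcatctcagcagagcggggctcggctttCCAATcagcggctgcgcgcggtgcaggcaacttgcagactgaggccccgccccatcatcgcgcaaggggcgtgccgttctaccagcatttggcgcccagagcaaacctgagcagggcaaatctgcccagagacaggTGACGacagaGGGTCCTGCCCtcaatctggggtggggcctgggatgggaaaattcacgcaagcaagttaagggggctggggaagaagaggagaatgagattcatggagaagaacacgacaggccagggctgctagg
Psmb8: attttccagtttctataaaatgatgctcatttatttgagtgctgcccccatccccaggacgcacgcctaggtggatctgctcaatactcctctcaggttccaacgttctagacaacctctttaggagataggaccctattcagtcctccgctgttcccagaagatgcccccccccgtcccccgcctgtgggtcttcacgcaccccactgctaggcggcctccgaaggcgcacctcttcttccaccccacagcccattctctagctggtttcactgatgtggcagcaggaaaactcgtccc

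Values are FPKM, fragments scaled by the length of the transcript and by the number of mapped fragments of the library. Steps in the low values implied 13400000 to 16100000 fragments per sample, and a transcript of 1000 bases at 10 FPKM then drew 134 to 161 fragments. The lowest value of any member was 50.1 FPKM. Fold changes are differences of mean log2(FPKM + 1), leukemic minus preleukemic. They were tested with limma over the 10541 genes, and a gene was called at an adjusted p (Benjamini-Hochberg) under 0.05. Of all genes tested, 893 were called higher in leukemic samples (8.47%) and 660 lower (6.26%).

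Markers of other cell types were measured in the cells of both groups, which the labels give as sorted. B-cell precursor markers, led by Vpreb3 and Cd79a, were expressed in all 7 samples and summed to 4325 to 6871 FPKM in leukemic and 8351 to 10477 FPKM in preleukemic samples, with 4 of 16 called lower. Erythroid markers, led by Hbb-b1 and Hba-a1 (12 of 12 tested called higher), summed to 5633 to 26185 FPKM in leukemic and 421 to 2789 FPKM in preleukemic samples, with Hbb-bs at the floor of 0.01 FPKM in every sample. Macrophage markers, led by C1qa and Hmox1 (7 of 12 called higher), summed to 55.9 to 284 against 15.8 to 26.5 FPKM, neutrophil markers, led by S100a8 and S100a9 (4 of 9), to 1446 to 1803 against 152 to 883 FPKM, and T and NK cell markers, led by Lck and Gzma (0 of 8), to 27.2 to 87.4 against 27.3 to 34.2 FPKM. Dendritic cell markers, led by Itgax and Flt3 and none of which was abundant enough to test, summed to 5.56 to 9.63 against 0.761 to 2.27 FPKM. Mature B cell markers, led by Cd74 and H2-Ab1 (3 of 9 called higher), summed to 266 to 733 against 239 to 368 FPKM, and plasma cell markers, led by Mzb1 and Irf4 (1 of 5 called higher), to 485 to 1001 against 831 to 1066 FPKM. Nucleated cells of most types express class I genes. In such bulk samples, a change in the share of a cell type and a change in RNA per cell cannot be told apart, and the part of these cells in the results on class I genes was not tested.

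Class I presentation genes were abundant in both groups. By mean FPKM over the 7 samples, B2m (1479 FPKM) ranked 31, H2-D1 (697 FPKM) ranked 82 and H2-K1 (386 FPKM) ranked 148 among the 10541 genes tested. Psmb8 followed at 278 FPKM, Psmb9 at 150.4 and H2-T23 at 147 FPKM. Tap1 (85.5 FPKM), Tapbp (80.0), Psmb10 (71.2) and Tap2 (64.9) were lowest. B2m was above H2-D1 and H2-D1 above H2-K1 in 7 of 7 samples. Neighbours that changed places between samples were H2-K1 and Psmb8 (H2-K1 higher in 5 of 7), Psmb9 and H2-T23 (Psmb9 higher in 3 of 7), Tap1 and Tapbp (Tap1 higher in 5 of 7) and Psmb10 and Tap2 (Psmb10 higher in 5 of 7).

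**Figure D1:**
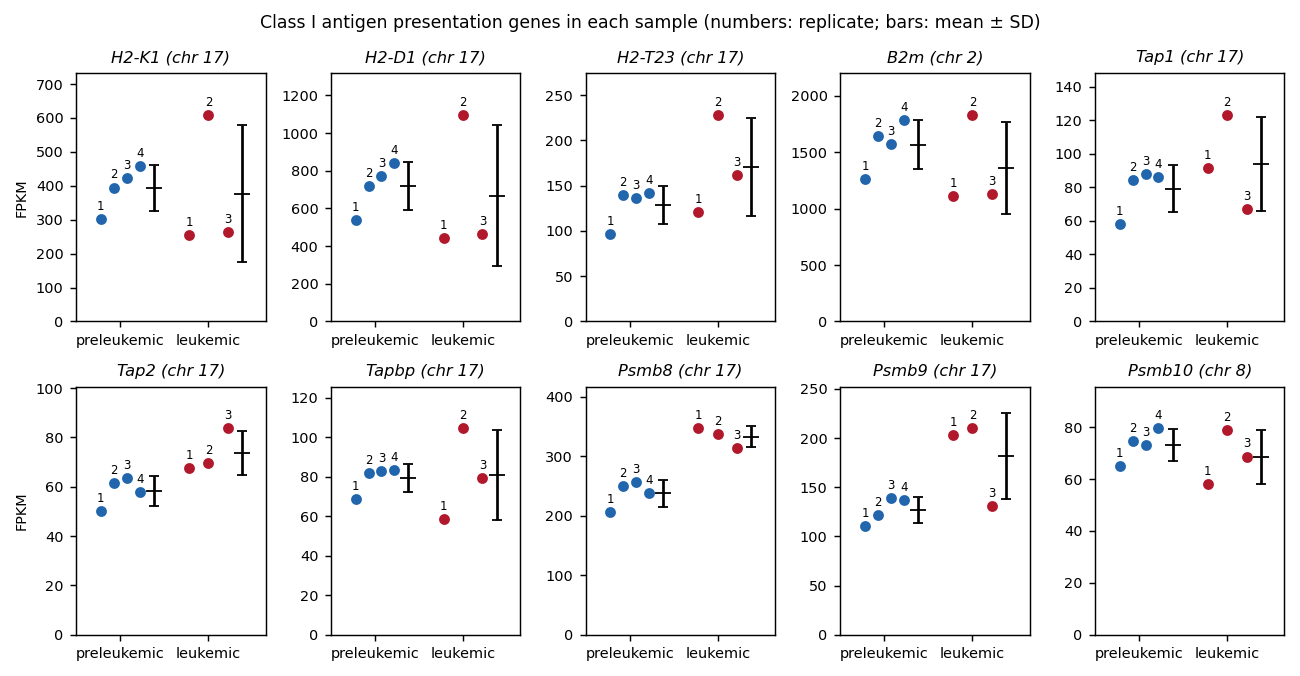
FPKM (linear axis from 0) of the 10 class I presentation genes in 4 preleukemic (blue) and 3 leukemic (red) samples, with replicate numbers above the points and the mean ± SD in black beside each group. Leukemic replicate 2 is the highest of the 7 samples for 7 of the 10 genes, beside 15.5% of all genes tested. The groups do not overlap for Psmb8 and Tap2.

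Of the 10 genes, 1 was called, Psmb8, which was higher in leukemic samples, beside 8.47% of all genes called in that direction. None was called lower, beside 6.26%. At an unadjusted p under 0.05, 3 were higher (Psmb8, Psmb9 and Tap2) and 0 lower, beside 1738 and 1848 of all genes. The groups did not overlap for Psmb8 and Tap2, both higher in leukemic samples, which is 2 of 10 beside 14.9% of all genes, and for 0 of 10 were all leukemic samples lower, beside 17.1%. These counts are close to the background. The median log2 fold change of the 10 genes was 0.11, and that of all genes tested was -0.02.

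Psmb8 encodes the inducible subunit β5i (LMP7) of the immunoproteasome. It was at 347, 337 and 313 FPKM in leukemic replicates 1, 2 and 3, and at 205, 250.3, 257 and 238 FPKM in preleukemic replicates 1 to 4. Every leukemic sample was above every preleukemic sample. The means were 332 ± 17.6 (SD, n = 3) and 238 ± 22.9 FPKM (SD, n = 4), a ratio of 1.40, and the log2 fold change was 0.49 (SE 0.10, 95% interval 0.26 to 0.71, limma adjusted p = 0.0213). The call was kept in 10 of 15 alternative settings, over which the adjusted p ran from 0.0197 to 0.355. It was lost without preleukemic replicate 2 (adjusted p = 0.0522), 3 (0.0549) or 4 (0.0721), each with a log2 fold change of 0.49 to 0.53, and with the replicate number as a block (0.49, adjusted p = 0.147). Calls over all genes, 1553 in the main fit, fell to 443, 271 and 149 without these samples and to 0 with the block. The Psmb8 call was also lost when chromosome 17 genes were centred on the median of their chromosome in each sample, where the log2 fold change was 0.12 (adjusted p = 0.355).

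Psmb9 (β1i, LMP2) was at 203, 210.4 and 131 FPKM in leukemic replicates 1 to 3, and at 110.2, 122, 139 and 137 FPKM in preleukemic replicates 1 to 4. Leukemic replicates 1 and 2 stood above all preleukemic samples, whereas leukemic replicate 3 lay among them. The log2 fold change was 0.49 (SE 0.18), the same size as for Psmb8 with a wider spread, and it was not called (limma adjusted p = 0.104). Without leukemic replicate 3 it was 0.70 and was called (adjusted p = 0.0269). Psmb10 (β2i, MECL-1), on chromosome 8, was at 58.2, 78.9 and 68.7 FPKM in leukemic and 65.1, 74.6, 73.3 and 79.7 FPKM in preleukemic samples. The groups overlapped throughout, and the log2 fold change was -0.10 (95% interval -0.38 to 0.18, limma adjusted p = 0.583). The 3 inducible subunits thus did not share a sample order, and a difference between their fold changes was not tested.

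Each inducible subunit replaces a constitutive one, Psmb5 for Psmb8, Psmb6 for Psmb9 and Psmb7 for Psmb10. None of the constitutive genes was called, with log2 fold changes of 0.16, 0.11 and 0.16. The ratio of Psmb8 to Psmb5 FPKM was 7.30, 5.91 and 5.43 in leukemic samples and 4.35, 5.59, 4.76 and 5.10 in preleukemic samples. Leukemic replicate 3 fell below preleukemic replicate 2, so the groups overlapped. The ratio of Psmb9 to Psmb6 was 1.47, 1.62 and 1.12 in leukemic and 0.855, 1.13, 1.15 and 1.17 in preleukemic samples. Psmb10 to Psmb7 gave 0.304, 0.443 and 0.459 in leukemic and 0.396, 0.547, 0.444 and 0.520 in preleukemic samples. On the log2 scale the differences in these ratios were 0.32, 0.37 and -0.26. In exact two-sided permutation tests over the 35 labelings they had p = 0.114, 0.229 and 0.286 (each 0.286 after adjustment over the 3 ratios), in a design whose smallest possible p is 0.0571.

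**Figure D2:**
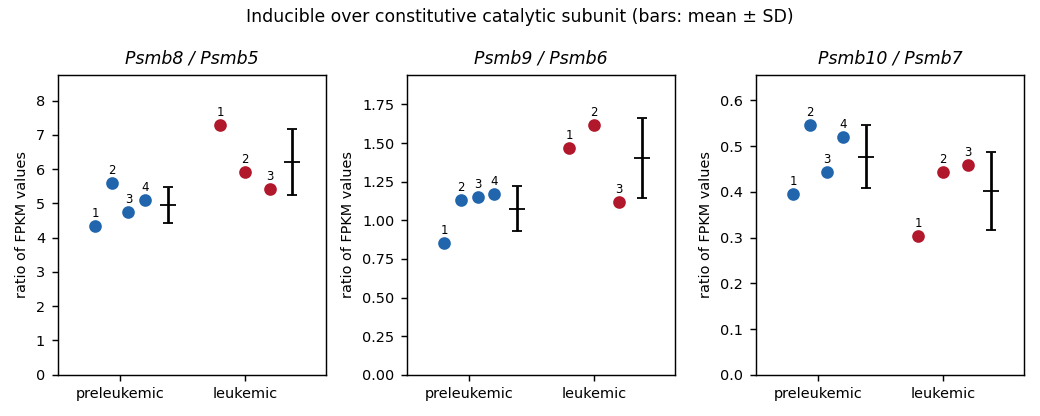
Ratio of the FPKM of each inducible catalytic subunit to that of its constitutive counterpart (linear axes from 0) in preleukemic (blue) and leukemic (red) samples, with replicate numbers and the mean ± SD in black. Psmb8 stands at 4.35 to 7.30 times Psmb5, whereas Psmb10 stays below Psmb7 in all 7 samples, and the groups overlap in each panel.

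The genes of the peptide transporter and of tapasin were not called. Tap2 was at 67.5, 69.6 and 83.9 FPKM in leukemic replicates 1 to 3, and at 50.1, 61.6, 63.5 and 57.9 FPKM in preleukemic replicates 1 to 4. All leukemic samples were above all preleukemic samples. The log2 fold change was 0.33 (SE 0.12, 95% interval 0.06 to 0.60), with an unadjusted p of 0.0225 and a limma adjusted p of 0.0931.

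Tap1 was at 91.5, 123 and 67.0 FPKM in leukemic samples and at 58.3, 84.3, 87.9 and 86.2 FPKM in preleukemic samples. Leukemic replicate 3 lay below 3 of the 4 preleukemic samples, and the other 2 lay above all of them. The log2 fold change was 0.22 (SE 0.23, limma adjusted p = 0.515). The ratio of Tap1 to Tap2 FPKM, whose products form a heterodimer, ran from 1.16 to 1.49 in preleukemic samples and was 1.36, 1.77 and 0.799 in leukemic samples. Leukemic replicate 3 was thus the only sample with less Tap1 than Tap2.

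Tapbp was at 58.8, 105 and 79.2 FPKM in leukemic samples and at 68.8, 82.1, 82.9 and 83.6 FPKM in preleukemic samples. The leukemic samples lay on both sides of the preleukemic ones. The means were 81.0 ± 23.03 (SD, n = 3) and 79.3 ± 7.08 FPKM (SD, n = 4), and the log2 fold change was -0.01 (95% interval -0.44 to 0.43, limma adjusted p = 0.986).

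The classical heavy chains and β2-microglobulin shared an order over the samples. H2-K1 was at 256, 610.0 and 263 FPKM in leukemic replicates 1 to 3, and at 301, 395, 422 and 458 FPKM in preleukemic replicates 1 to 4. H2-D1 was at 442, 1098 and 463 FPKM in leukemic and 540.3, 719.6, 771 and 842 FPKM in preleukemic samples. B2m was at 1114, 1834 and 1134 FPKM in leukemic and 1263, 1646, 1577 and 1783 FPKM in preleukemic samples. For all 3 genes leukemic replicates 1 and 3 were the lowest of the 7 samples and leukemic replicate 2 was the highest. This order was found in 3 of the 10 members and in 1.59% of all genes tested (168). It was noticed in the values and carries no test.

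None of these genes was called. The log2 fold changes were -0.17 (95% interval -0.91 to 0.56, limma adjusted p = 0.724) for H2-K1, -0.22 (-0.99 to 0.54, adjusted p = 0.659) for H2-D1 and -0.23 (-0.70 to 0.23, adjusted p = 0.433) for B2m. The leukemic group spread widely, with the highest sample 2.38 times the lowest for H2-K1 and 2.48 times for H2-D1, against 1.52 and 1.56 times in preleukemic samples. The median of this spread over 8777 genes with a mean of at least 5 FPKM was 1.31 in leukemic and 1.22 in preleukemic samples. Without leukemic replicate 2 the log2 fold changes were -0.58 for H2-K1 (adjusted p = 0.0625), -0.65 for H2-D1 (0.0548) and -0.47 for B2m (0.0710), which also missed the threshold. Leukemic replicate 2 also had the highest summed macrophage (284 FPKM), erythroid (26185 FPKM), T and NK cell (87.4 FPKM) and dendritic cell (9.63 FPKM) markers of the 7 samples. Within the leukemic group it had the highest B-cell precursor (6871 FPKM) and plasma cell (1001 FPKM) sums and the lowest neutrophil sum (1446 FPKM). Its mature B cell sum (485 FPKM) lay between the other leukemic samples. Leukemic replicates 1 and 3, with the lowest H2-K1 values, had macrophage sums of 55.9 and 114 FPKM, which were above all preleukemic samples. The part of these cells in the order of samples was not tested.

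The ratio of H2-D1 to H2-K1 FPKM stayed between 1.73 and 1.84 in all 7 samples while both genes varied. The coding sequences of these genes are 92.0% identical (988 of 1074 aligned bases) in the reference, and 8.79% of the 50-base words of the H2-K1 transcript and 14.3% of those of H2-D1 occur in transcripts of other genes. How fragments that fit several class I genes were shared out is not given in the sources used here, and BALB/c carries another MHC haplotype than the C57BL/6J reference. Values of single class I heavy chains are therefore uncertain. B2m, Psmb8, Psmb9 and Psmb10 had no shared 50-base word. The ratio of B2m to the sum of H2-K1 and H2-D1 was 1.32 to 1.5 in preleukemic samples, 1.6 and 1.56 in leukemic replicates 1 and 3, and 1.07 in leukemic replicate 2. In that sample the heavy chains stood higher relative to their light chain than in any other.

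H2-T23 encodes the heavy chain of Qa-1, a nonclassical class I molecule that presents signal peptides of other class I chains to NKG2 receptors. It was at 121, 229 and 161 FPKM in leukemic replicates 1 to 3, and at 96.6, 139.7, 137 and 142 FPKM in preleukemic replicates 1 to 4. Leukemic replicates 2 and 3 were above all preleukemic samples, and leukemic replicate 1 was below 3 of them. The log2 fold change was 0.37 (SE 0.23, limma adjusted p = 0.285). Relative to H2-K1, H2-T23 stood at 0.473, 0.375 and 0.613 in leukemic samples and at 0.310 to 0.354 in preleukemic samples, with no overlap of the groups, as for 32.0% of all genes in either direction by their own FPKM. Of its 50-base words, 28.8% occur in other transcripts, and the table places it in a joint locus with H2-T24.

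In the preleukemic group, replicate 1 was the lowest of the 4 samples for 10 of 10 members and for 14 of 15 other class I heavy chains, against 29.2% of all genes tested. This sample also had the highest erythroid (2789 FPKM) and neutrophil (883 FPKM) marker sums of its group. The part of those cells in the lower values was not tested.

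**Figure D3:**
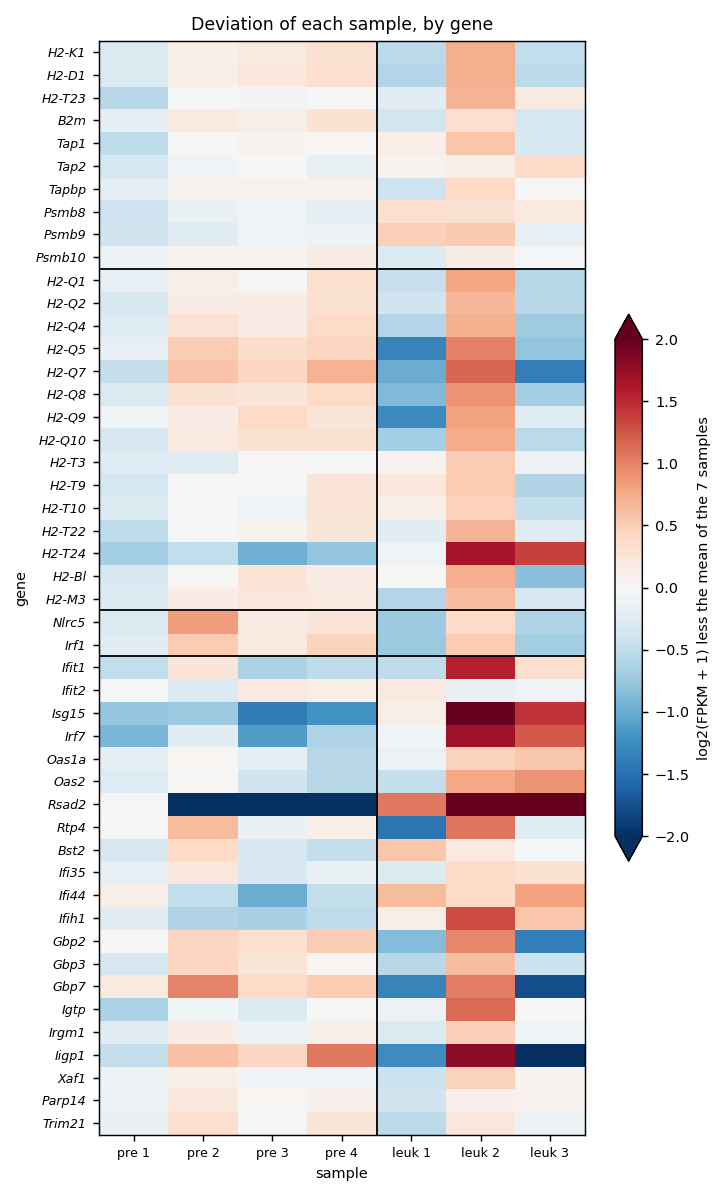
Deviation of log2(FPKM + 1) from the mean of the 7 samples (color scale ending at -2 and 2) for, from top to bottom, the 10 members, 15 other class I heavy chains, Nlrc5 and Irf1, and 21 interferon-stimulated genes. Leukemic replicate 2 is the highest sample for 15 of 15 other class I chains, beside 15.5% of all genes tested. Leukemic replicates 1 and 3 are the lowest for 9 of them, beside 13.2%. Class I heavy chains share sequence, so these are not separate observations.

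The 8 members on chromosome 17 lie on a chromosome whose genes were higher in the leukemic samples. Of 584 other chromosome 17 genes tested, 198 were called higher (33.9%) and 3 lower (0.514%), and 85.3% had a log2 fold change above 0. Their median log2 fold change was 0.35 (quartiles 0.14 and 0.57), against -0.04 for the other chromosomes. Between Tapbp and H2-T23, a stretch of 2.12 Mb, 79 genes other than class I chains and members had a median of 0.40, with 32 called higher and 0 lower. In each sample the median deviation of 486 chromosome 17 genes from the mean of the 7 samples was 0.21, 0.19 and 0.23 in leukemic and -0.22, -0.20, -0.03 and -0.18 in preleukemic replicates 1 to 4. Preleukemic replicate 3 thus lay between the others and the leukemic samples. The chromosome numbers of these samples were not analysed here, and the part of chromosome dosage in the members' values was not tested.

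Of the 8 members on chromosome 17, 1 was called higher, beside the 33.9% of its other genes. Log2 fold changes were above 0 for 5 and below 0 for 3, and 3 exceeded the chromosome's median of 0.35. Psmb8 and Psmb9 were 0.14 above this median and H2-T23 was 0.02 above it. Tap2, Tap1 and Tapbp differed from it by -0.02, -0.13 and -0.35. H2-K1 and H2-D1 were furthest below, at -0.52 and -0.57, and 8.39% and 7.19% of the other chromosome 17 genes had a lower fold change. B2m and Psmb10, the members on other chromosomes, had log2 fold changes of -0.23 and -0.10, near those of H2-K1 and H2-D1. When chromosome 17 genes were centred in each sample on the median of the chromosome, the log2 fold change of Psmb8 was 0.12 (limma adjusted p = 0.355) and no member was called, with 0 at an unadjusted p under 0.05. In that setting Tap1 (-0.15) and Tap2 (-0.03) changed sign.

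**Figure D4:**
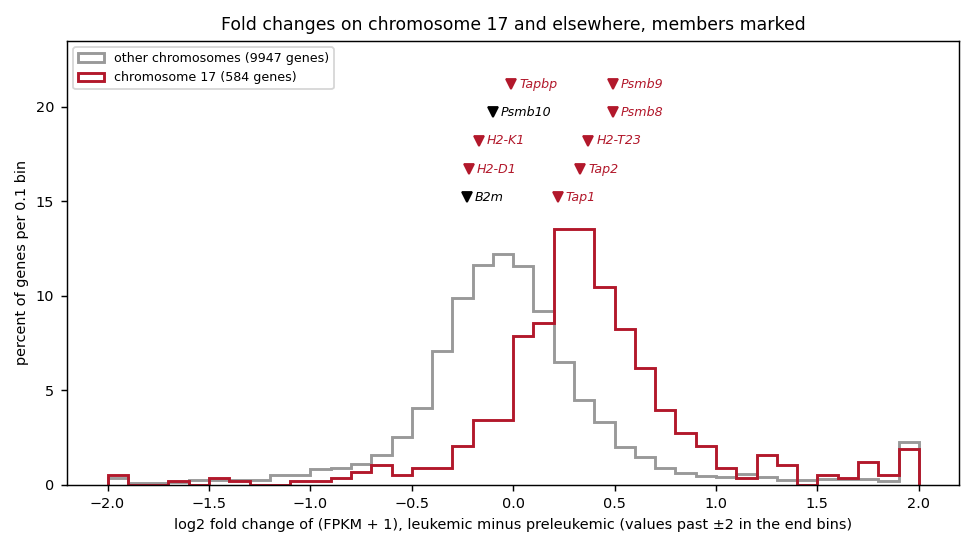
Percent of genes per bin of 0.1 in log2 fold change of (FPKM + 1), leukemic minus preleukemic, for chromosome 17 (red line) and all other chromosomes (gray line) without the members, which are marked by triangles (red on chromosome 17, black elsewhere) at arbitrary heights. The chromosome 17 distribution is centred at 0.35 and that of the other chromosomes at -0.04, and H2-K1, H2-D1 and Tapbp sit to the left of 0.

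**Figure D5:**
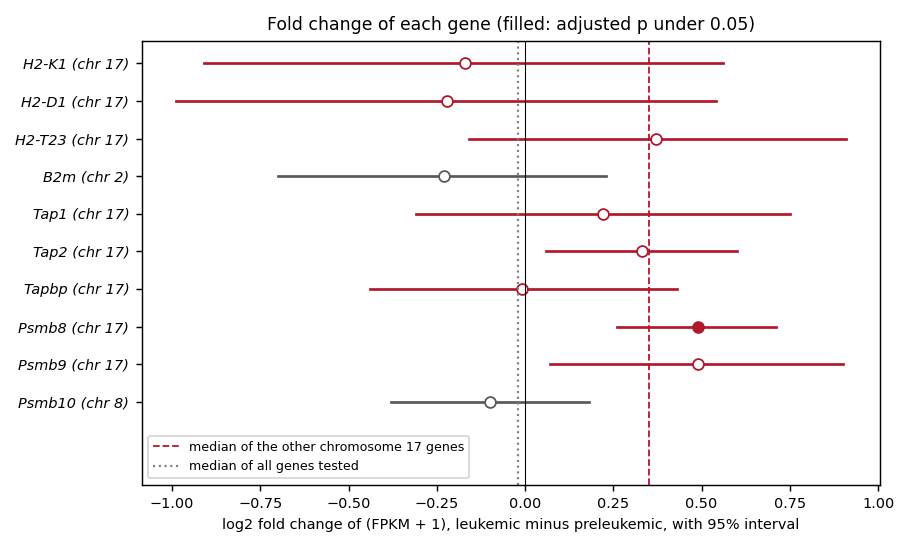
Log2 fold change of (FPKM + 1) of each member, leukemic minus preleukemic, with its 95% interval (red on chromosome 17, gray elsewhere; filled where called). The dashed line is the median of the other chromosome 17 genes (0.35) and the dotted line that of all genes tested (-0.02), and the interval of Psmb8 alone belongs to a called gene.

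Further genes of the pathway were read from 7 lists, of which 108 genes were tested. Of these 9 were called higher and 4 lower, beside 8.47% and 6.26% of all genes. The count of 13 called was 20 without leukemic replicate 2, 6 without leukemic replicate 3, 7 without preleukemic replicate 1 and 1 without any single one of preleukemic replicates 2, 3 and 4. Over all genes, 1553 were called with all samples. Without leukemic replicates 2 and 3 this was 1620 and 1402, and without preleukemic replicates 1 to 4 it was 932, 443, 271 and 149.

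Among 15 other class I heavy chains tested, 1 was called higher and 0 lower (also 0 at an unadjusted p under 0.05), and the median log2 fold change was -0.17. The most abundant were H2-Q4, H2-Q8, H2-Q10 and H2-Q2, nonclassical chains of the Q region, with log2 fold changes of -0.34, -0.38, -0.28 and -0.17. H2-Q4 was at 123, 305 and 113 FPKM in leukemic and 155, 226, 208 and 243 FPKM in preleukemic samples. Like H2-K1, it was lowest in leukemic replicates 1 and 3 and highest in leukemic replicate 2. This order held for 9 of the 15 chains, beside 1.59% of all genes tested. The called gene was H2-T24, at 22.8, 78.5 and 64.6 FPKM in leukemic and 14.8, 16.985, 12.0 and 13.7 FPKM in preleukemic samples (log2 fold change 1.71, SE 0.39, limma adjusted p = 0.0304). It stands in the joint locus with H2-T23, and how fragments were divided between the 2 genes is not given in the sources used here.

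Of 9 class I-like chains encoded outside the MHC, 1 was called higher and 1 lower, beside 8.47% and 6.26% of all genes, with a median of -0.39. At an unadjusted p under 0.05, 2 were higher and 2 lower, beside 1738 and 1848 of all 10541 genes. Cd1d1, which presents lipids to NKT cells, was at 17.004, 23.3 and 28.6 FPKM in leukemic and 39.6, 45.4, 48.1 and 46.4 FPKM in preleukemic samples. The groups did not overlap, as for 17.1% of all genes in the lower direction, and its log2 fold change was -0.96 (SE 0.17, limma adjusted p = 0.0167). Its close paralog Cd1d2, Ulbp1 and Mr1 had log2 fold changes of -0.59, -0.03 and -0.39 and were not called (adjusted p = 0.206, 0.872 and 0.05002). Mr1, which presents vitamin metabolites to MAIT cells, was lower in every leukemic than in every preleukemic sample. Hfe, a regulator of iron uptake, had low values and was higher in leukemic samples (log2 fold change 1.13, adjusted p = 0.0313).

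Of 22 genes in the list for peptide supply and loading, 0 were called higher and 2 lower, and the median was -0.05. At an unadjusted p under 0.05, 0 were higher and 4 lower, beside 1738 and 1848 of all 10541 genes. Of the 2 called, Uggt1 belongs to glycoprotein quality control, and Mfsd6 is not known to supply or load peptides. The chaperones Calr, Hspa5 and Pdia3 and the translocon subunit Sec61b were the most abundant, with log2 fold changes of 0.06, 0.06, -0.06 and 0.19, and none was called. Uggt1, which checks the folding of glycoproteins, was at 25.2, 31.5 and 27.2 FPKM in leukemic and 34.6, 37.3, 38.7 and 40.5 FPKM in preleukemic samples (log2 fold change -0.42, limma adjusted p = 0.0332). Mfsd6, described as a receptor for class I molecules on macrophages, was at 7.21 to 8.51 FPKM in leukemic and 16.8 to 18.1 FPKM in preleukemic samples (log2 fold change -1.03, adjusted p = 0.00467). Of 9 constitutive counterparts and regulators of the proteasome, 1 was called higher, the nuclear activator Psme3 (log2 fold change 0.39, adjusted p = 0.0496), and 0 lower (also 0 at an unadjusted p under 0.05), with a median of 0.16. The interferon-inducible activator subunits Psme1 and Psme2 and the assembly factor Pomp had log2 fold changes of 0.22, 0.19 and 0.11 and were not called.

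None of 21 regulators of class I transcription was called in either direction by limma, and their median was -0.08. At an unadjusted p under 0.05, 1 was higher and 5 were lower, beside 1738 and 1848 of all 10541 genes. The most abundant were Ezh2, Irf8, Nfya and Suz12, with log2 fold changes of -0.14, 0.50, 0.39 and 0.03. Irf8, an interferon regulatory factor of B cells, was at 135, 43.5 and 177 FPKM in leukemic and 59.0, 58.4, 88.6 and 85.5 FPKM in preleukemic samples. It was lowest in leukemic replicate 2, where the class I heavy chains were highest. Nlrc5 and Irf1 are named after their values were seen. Nlrc5, the class I transactivator, was at 8.01, 18.5 and 8.89 FPKM in leukemic and 11.2, 25.7, 15.8 and 16.7 FPKM in preleukemic samples. Irf1 was at 26.3, 64.0 and 27.2 FPKM in leukemic and 38.4, 64.2, 51.6 and 61.2 FPKM in preleukemic samples. In both, leukemic replicates 1 and 3 were the lowest samples and leukemic replicate 2 came second to preleukemic replicate 2. Leukemic replicates 1 and 3 were the lowest samples for 5 of the 21 regulators, beside 13.2% of all genes tested (1395). Their log2 fold changes of -0.56 and -0.55 had limma adjusted p = 0.277 and 0.274.

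Of 11 genes of interferon receptors and their signal, 1 was called higher and 1 lower, beside 8.47% and 6.26% of all genes, with a median of 0.03. At an unadjusted p under 0.05, 1 was higher and 2 were lower, beside 1738 and 1848 of all 10541 genes. Ifnar2, a chain of the type I interferon receptor, was at 22.8, 29.7 and 26.6 FPKM in leukemic and 16.5, 13.9, 14.9 and 19.3 FPKM in preleukemic samples (log2 fold change 0.68, SE 0.14, limma adjusted p = 0.0222). Ifngr2, a chain of the interferon-γ receptor, was at 34.7, 41.0 and 50.2 FPKM in leukemic and 52.8, 66.1, 59.0 and 61.3 FPKM in preleukemic samples (log2 fold change -0.51, SE 0.14, adjusted p = 0.0465). The groups overlapped for neither gene, beside 14.9% of all genes without overlap in the higher and 17.1% in the lower direction. The kinase Jak1, the receptor chain Ifngr1 and the phosphatase Ptpn2 were not called, with log2 fold changes of -0.31, 0.10 and 0.03 (adjusted p = 0.0912, 0.709 and 0.783).

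Of 21 interferon-stimulated genes outside antigen presentation, 5 were called higher and 0 lower, beside 8.47% and 6.26% of all genes. Their median log2 fold change was 0.24. At an unadjusted p under 0.05, 6 were higher and 0 lower, beside 1738 and 1848 of all 10541 genes. The 5 called were Isg15, Irf7, Rsad2, Ifi44 and Ifih1, of the antiviral response. Isg15 was at 23.1, 125 and 58.5 FPKM in leukemic and 11.8, 12.2, 7.28 and 8.50 FPKM in preleukemic samples (log2 fold change 2.40, SE 0.50, limma adjusted p = 0.0250). Rsad2 was at 18.6, 126 and 69.3 FPKM in leukemic and 8.33, 0.650, 0.624 and 0.532 FPKM in preleukemic samples (log2 fold change 4.49, SE 0.83, adjusted p = 0.0181). Unlike H2-K1, the 5 called genes were above the preleukemic samples in leukemic replicates 1 and 3 too, which follows in part from being called higher. The guanylate-binding protein Gbp7 was at 14.7, 79.0 and 10.5 FPKM in leukemic and 44.3, 77.6, 50.7 and 55.1 FPKM in preleukemic samples, and was not called (log2 fold change -1.22, adjusted p = 0.208). Bst2 and Irgm1, also among the most abundant of the list, had log2 fold changes of 0.41 and 0.06 and were not called. Gbp7 had the sample order of H2-K1, H2-D1 and B2m. With Gbp7, 5 of the 21 genes had it, beside 1.59% of all genes tested. The macrophage marker sums of the leukemic replicates were 55.9, 284 and 114 FPKM, and their erythroid marker sums were 5633, 26185 and 12712 FPKM, both in the same order of samples as Isg15 and Rsad2. That order was not particular to these lists. It also held for the B-cell precursor sums (4325, 6871 and 5738 FPKM) and the T and NK cell sums (27.2, 87.4 and 47.5 FPKM). Dendritic cell (5.56, 9.63 and 8.84 FPKM) and plasma cell sums (485, 1001 and 892 FPKM) had it too. Neutrophil and mature B cell sums did not. In the preleukemic group, replicate 1 had the highest erythroid sum (2789 FPKM, against 421 to 444 FPKM) and the highest Rsad2, whereas its macrophage sum (22.4 FPKM) lay within the range of that group. Isg15 was highest in preleukemic replicate 2 (12.2 FPKM, against 11.8 FPKM in replicate 1), which had the group's highest macrophage sum (26.5 FPKM). Of the other called genes, Irf7 was also highest in preleukemic replicate 2, and Ifi44 and Ifih1 were highest in preleukemic replicate 1. The part of any of these cell types in these values was not tested.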

How the data were processed

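The authors sequenced stranded mRNA libraries of 7 samples. The deposited values are FPKM per gene and sample, with none below 0.01. The submitters' processing notes name STAR 2.5.0b, Cufflinks 2.2.1, bedtools 2.17.0, Bowtie, DESeq2 and mm10, without saying which made the FPKM values or how fragments that fit several genes were counted. FPKM are not counts, so a model of log values was used in place of the study's count model, with its filter (a sum of at least 10, here of FPKM over the samples), its FDR of 0.05 and no covariates.

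Samples were grouped by their labels. Differences were fitted with limma 3.58.1 in R 4.3.3 (lmFit, eBayes with intensity trend) on log2(FPKM + 1) over 10541 genes, with Benjamini-Hochberg adjustment over all of them. Subunit ratios were compared by exact permutation. Depth was read from whole-fragment steps in low values (67.3 to 72.6% whole within 0.05 fragment, against 4.2 to 4.7% at other depths), which is too few to recover counts. The fit was tested on simulated data, in which 200 genes were changed by log2 0.5, 1 or 2. It recovered 54.5%, 99.5% and 100% of them, with 7, 9 and 5 false calls, and made 0 calls where no gene was changed. Changes of about 0.5 can therefore be missed. The simulated spread followed the trend over expression level, so genes that spread more widely are not represented. No pair of samples shared more than 1 equal value, and the table held 0 columns of other series. Samples with the same replicate number did not deviate together (correlations 0.03, 0.05 and -0.09), so the numbers were not used as pairs.

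The members, lists and promoter patterns were chosen with earlier results of these data known. Named genes are the members, Psmb5, Psmb6 and Psmb7, and in each list of related genes the 4 with the highest mean FPKM and all called genes where 5 or fewer were called, and the 2 with the highest mean FPKM in each marker list. Other names were chosen after their values were seen. 1 gene of these lists stays in the counts and is not reported here. Alternatives were a pseudocount of 0.1, quantile and median ratio scaling, filters of 70 and none, no trend, a replicate block, chromosome 17 centring and leaving out each sample. Alignments used Biopython 1.88, and the other steps used Python 3.11.15 with scipy 1.17.1, pandas 2.3.3, numpy 2.4.6 and matplotlib 3.10.9.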

Additional observations from a re-analysis of the deposited data

Results flagged for a closer look

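Preleukemic replicate 1 stood far below the other 3 preleukemic samples by Dixon's criterion for H2-T23 (96.6 FPKM), Tap1 (58.3 FPKM), Tapbp (68.8 FPKM) and the log2 ratio of Psmb9 to Psmb6 (-0.22). The gap to the nearest sample, divided by the range of the group, exceeded the 95% critical value for 4 samples. The preleukemic values of all 10 members and of the 3 subunit ratios were examined. By chance 5% of groups, or about 1 in 20, would be marked. The 4 values come from 1 sample and are not independent, and groups of 3 samples were not examined in this way.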

How the results depend on the processing

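Of 252 recomputed values, 215 kept their direction and call or, for counts, stayed within 1.5 times. Another 5 (all Psmb8) lost the threshold, 1 passed it, 12 changed sign and 19 counts moved by over 1.5 times. The 215 include the subunit ratios, which could not lose a call. Their permutation p could not fall under 0.0571 with all 7 samples and was not computed with the block. The number of members called (1) was 0 with the replicate block and with chromosome 17 centring, and 0 to 2 when single samples were left out. The number of related genes called (13) was 0 with the block, where limma called no gene of 10541 and 2429 had an unadjusted p under 0.05, and 1 to 20 when single samples were left out. Preleukemic replicate 4 has no partner and adds nothing to the block. With the block the log2 fold change of Psmb8 was 0.49 (adjusted p = 0.147) and that of Tapbp 0.02, and the subunit ratios differed by 0.34, 0.42 and -0.21. The labels do not say whether the numbers pair the samples. Chromosome 17 members above the median of their chromosome (3) numbered 2 to 4 without single samples. Sign changes, all in genes that were not called, were Tap1 (-0.15) and Tap2 (-0.03) with chromosome 17 centring, Tapbp with median ratio scaling (0.0008), H2-K1 (0.04), H2-D1 (0.01), Tapbp (0.20) and Psmb10 (0.01) without leukemic replicate 1, H2-K1 (0.02) without leukemic replicate 3, and Tapbp (0.01, 0.02 and 0.02) without preleukemic replicates 2, 3 and 4. Ranges without single samples were -0.58 to 0.04 for H2-K1, -0.65 to 0.01 for H2-D1, -0.21 to 0.20 for Tapbp, -0.20 to 0.01 for Psmb10, 0.42 to 0.53 for Psmb8 and 0.36 to 0.70 for Psmb9. For the ratios they were 0.20 to 0.41, 0.26 to 0.53 and -0.36 to -0.07. With quantile normalization B2m, H2-D1 and H2-K1 were at -0.52, -0.47 and -0.37. Over all genes, 1553 were called, 951 with a filter of 70, and 149 to 1620 without single samples. The causes were not tested, apart from fewer samples or genes where a setting removes them. With 3 and 4 samples, the 95% intervals set what size of difference could be seen.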
